A study of Mus musculus with 34 samples.

Results

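The cytosolic ribosomal protein genes encode the proteins of the ribosome that translates nuclear messages. They were chosen by name, as genes whose symbol starts with Rpl (large subunit) or Rps (small subunit) and goes on with a number and at most the letter a, x or l, together with Rplp0, Rplp1, Rplp2 and Rpsa, and without annotated pseudogenes. This gave 79 of the 37145 genes in the culture tables and 80 of the 46785 genes in the embryo tables, with 78 in both. The large subunit had 47 members in cultures and 48 in sections, and the small subunit had 32 in each. Rps3a was listed in the cultures alone, and Rps4l and Rpl41 in the sections alone. The sections list Rps3a1 instead of Rps3a, a name outside the rule, with group means of 25.7 to 60.2 FPKM in streak and mesoderm.

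Growing cells make these proteins from some of the most abundant messages they have. Many of the messages begin with a run of pyrimidines, the TOP start, through which mTOR and the protein Larp1 adjust their translation together. The genes are also known for a very large number of processed pseudogenes, intron-free copies elsewhere in the genome whose sequence can be the same as that of the message. The dividing cells of the early mouse embryo, which pass through the primitive streak as gastrulation begins, make ribosomes at a high rate.

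The series concerns the long noncoding RNA Evx1as in the patterning of the mouse embryo. The 6 culture libraries came from mouse embryonic stem cells of strain 129S1/SVImJ on day 4 after withdrawal of leukemia inhibitory factor (LIF), the cytokine that keeps such cells undifferentiated. Line CJ9 served as the wild type and gave 3 of them. The other 3 were of the line 4x polyA KI, called the knock-in here. The labels do not say how many clones that line was, nor whether replicates were separate cultures, so p-values measure the spread between these samples, which may be technical. The other libraries were laser-captured pieces of sections of C57/B6 embryos at embryonic day 7, heterozygous (Evx1as+/-) or homozygous (Evx1as-/-). No section is labelled as wild type. The streak gave 6 heterozygous and 5 homozygous sections, the mesoderm 3 and 5, and the anterior epiblast 1 of each genotype. Each of these streak and mesoderm sections carries a layer number. No label says which embryo a section was cut from. Some may share one, so every p-value over sections may be too small.

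All values are FPKM, fragments scaled to the length of the transcript and to the mapped fragments of the library. The tables hold no read counts and the depth of the libraries is unknown. The interval deposited with each value of a member had a median width to either side of 16.2% of the value in cultures and 24.9% in sections. Genes listed at 1 FPKM or more numbered 12758 to 13073 per culture and 6806 to 10959 per section. A further 3 sections carry a region in the title that differs from the one in the cell type label, and they entered no comparison. Evx1as, listed as 5730457N03Rik, was at 3.94, 5.84 and 5.99 FPKM in the wild-type cultures and at 0.0674, 0.0798 and 0.137 in the knock-in cultures. It reached 4.57 FPKM in heterozygous and 0.159 in homozygous streak sections, with 0 in some sections of both genotypes.

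Most of the FPKM of this family was listed under the names of copies. A search of annotated mouse transcripts found 952 copies of members in the culture tables and 1388 in the section tables, and the 938 and 1354 that reach 150 bases were added to their member to give a family total. The copies named here were singled out after their values were seen. Rpl37a, a small zinc-binding protein of the large subunit at chr1:72711290-72713813 (plus strand, build GRCm38), has 3 introns within its coding sequence. Gm4149 at chr13:75644896-75645171 (plus strand) has none and matched it in 275 of 276 bases, with the substitution T198C, counted from 1 at the A of the start codon and written with the base of Rpl37a first. Both are shown because the spliced message and the copy read alike apart from that base: a read from inside an exon fits both places, and a read across a junction fits the member with a gap and the copy without one. Capitals mark the bases on either side of each exon junction in Rpl37a and the differing base in Gm4149.
Rpl37a: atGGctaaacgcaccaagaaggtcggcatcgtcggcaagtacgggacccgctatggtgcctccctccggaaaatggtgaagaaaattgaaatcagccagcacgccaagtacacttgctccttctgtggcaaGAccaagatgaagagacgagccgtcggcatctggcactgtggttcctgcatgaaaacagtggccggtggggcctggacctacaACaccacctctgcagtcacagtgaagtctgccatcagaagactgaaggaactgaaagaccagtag
Gm4149: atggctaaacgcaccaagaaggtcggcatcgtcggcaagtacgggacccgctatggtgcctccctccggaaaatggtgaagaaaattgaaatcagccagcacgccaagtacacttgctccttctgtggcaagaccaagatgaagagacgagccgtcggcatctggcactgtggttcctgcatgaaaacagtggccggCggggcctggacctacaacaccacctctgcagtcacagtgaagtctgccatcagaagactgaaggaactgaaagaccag

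The values followed the copies. In cultures the row of Rps29, a small zinc-binding protein of the small subunit, held 1.30, 4.22 and 2.91 FPKM in the wild type and 2.26, 4.70 and 3.55 in the knock-in, while its family total was 2378, 2904 and 2186 in the wild type and 3915, 3639 and 3573 in the knock-in. Its copy Gm14303 alone had 2331, 2855 and 2169 FPKM in the wild type and 3826, 3622 and 3457 in the knock-in. The row of the gene itself thus held a very small part of the FPKM assigned to its sequence. How the authors' counting shared reads among equal sequences is not given in the sources used here, so levels and changes of a member with close copies are uncertain.

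Of the 77 families with a mean of at least 1 FPKM in cultures, 44 had less than 10% of their total in the member row and 7 had over 90%, with a median of 6.74%. In sections these counts were 58 and 6 of 77, with a median of 3.27%. The median member had 80.3 FPKM in cultures against 1766 for the median family, and 21.6 against 688 in sections. Members spread more widely than families: the middle 50% of members covered 3.41 log2 units in cultures and 2.71 in sections, and family totals covered 1.97 and 0.79. Low rows such as Rps28, with 15.5 FPKM on average in sections against 1138 for its family, and Rps29, with 58.0 against 1163, belong to families that are not low. Because FPKM is scaled to transcript length, a family total is not a sum of reads. A short copy counts for more FPKM per read, and the copies Gm10443 of Rps28 and Gm14303 of Rps29 have 210 and 171 bases. Members with no copy of at least 150 bases in their table numbered 5 in cultures (Rpl4, Rpl8, Rps3, Rpl3l and Rpl39l) and 6 in sections (Rpl8, Rpl41, Rps3, Rps4l, Rpl3l and Rpl39l). Rpl8, Rpl4 and Rps3 in cultures, and Rps4l and Rpl41 in sections, are those on which results below turn.

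**Figure D1:**
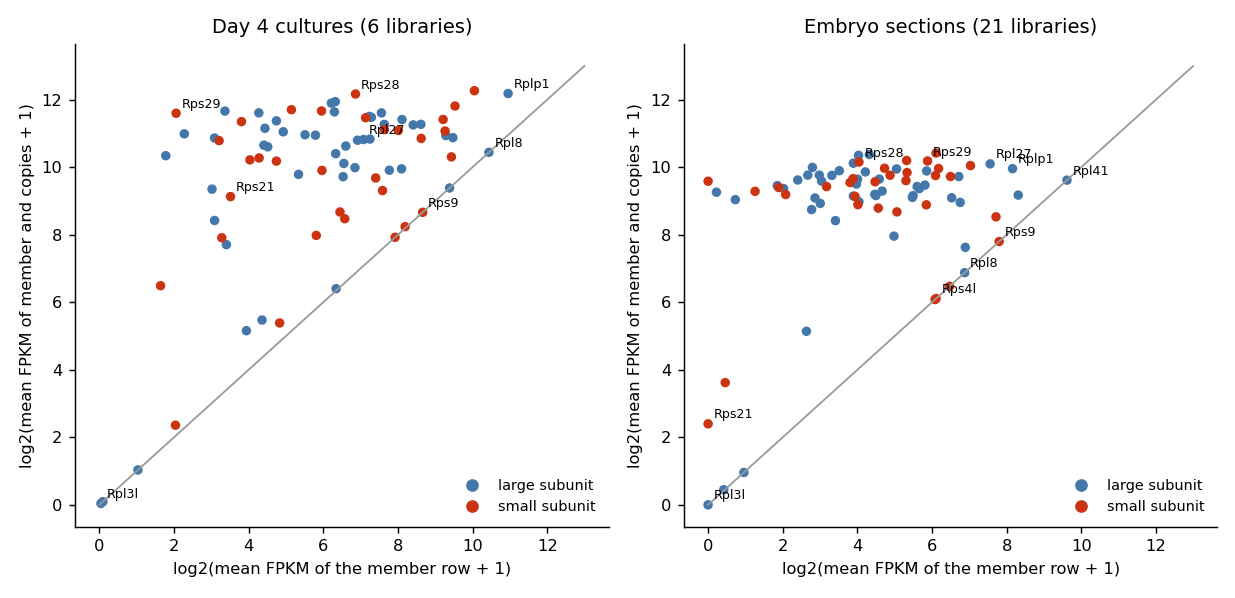
Mean level of each member's own row (x axis, log2(FPKM + 1)) against the mean of the member plus its copies (y axis, the same scale), in the 6 cultures (left) and 21 embryo sections (right). Points on the diagonal have all their FPKM in the member row; most points lie far above it, Rps29 and Rps28 among them, while Rps4l and Rpl41 in sections and Rpl8 in cultures lie on it.

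The members took up a larger share of all FPKM in the knock-in cultures. Their summed FPKM was 2.32%, 2.62% and 2.73% of the library in the wild type, with a mean of 2.56% ± 0.212 (SD, n = 3). In the knock-in it was 3.45%, 3.06% and 3.13%, with a mean of 3.21% ± 0.211 (SD, n = 3). The groups did not overlap. The copies too had a larger share, with 18.9% to 20.3% of FPKM in the wild type and 22.7% to 24.5% in the knock-in. The share is a description of each library and was given no test.

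Cultures and embryo sections were prepared and tabulated separately, and their shares cannot be compared directly. Heterozygous streak sections ranged from 1.09% to 2.45% with a median of 1.67%, and homozygous streak sections from 1.28% to 1.83% with a median of 1.48%. The 3 heterozygous mesoderm sections had 1.77%, 2.64% and 2.75%, and the homozygous mesoderm sections 1.23% to 1.98%, so the genotypes overlapped in both regions on this denominator. The anterior epiblast had 1.84% in the heterozygous and 1.41% in the homozygous section. A share depends on what else fills the library. Yam1, a noncoding RNA, was listed at 1.07% to 38.3% of FPKM in sections, and the culture tables have no row of that name. Mitochondrial genes took 3.92% to 5.53% in heterozygous and 2.25% to 3.21% in homozygous streak sections, and 3.38% to 5.42% and 2.03% to 2.97% in mesoderm. With Yam1 and the mitochondrial genes left out of the total, the members had 2.79% to 2.92% in heterozygous and 1.36% to 2.65% in homozygous mesoderm, which did not overlap. In streak they had 1.35% to 2.63% and 1.43% to 2.09%, which did.

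**Figure D2:**
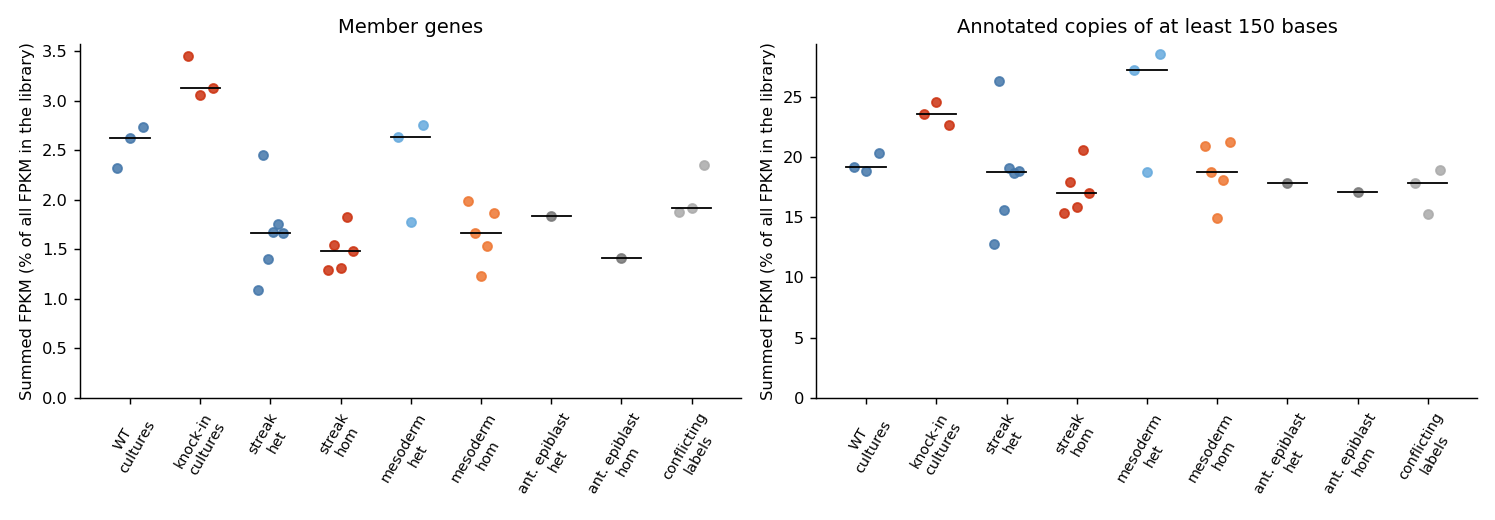
Summed FPKM of the member genes (left) and of their annotated copies of at least 150 bases (right) as a percent of all FPKM in each library, by group. Each point is 1 library and each bar a median; the knock-in cultures (3.06% to 3.45% for members) lie above the wild-type cultures (2.32% to 2.73%), and the section groups of different genotype overlap.

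Levels under the members' own names had a steep order. In wild-type cultures the highest means were those of Rplp1 (1775 FPKM), which forms the acidic stalk of the large subunit with Rplp0 and Rplp2, Rps2 (947), Rpl8 (895), Rps26 (600) and Rpsa (597). In the knock-in they were Rplp1 (2190 FPKM), Rpl8 (1882), Rps2 (1172), Rpl14 (888) and Rps26 (877). In sections Rpl41, the smallest protein of the ribosome, led every group, with means of 862 FPKM in heterozygous and 614 in homozygous streak, and 1242 and 628 in mesoderm. Its single epiblast sections had 966 FPKM in the heterozygote and 400.2 in the homozygote. Rps21 and Rpl3l were listed at 0 in every section. Rps21 with its copies had at most 15.0 FPKM in the sections with a region.

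Several members have a paralog that is known to be made in few tissues, and the pairs are given here by level. Rpl3l, a form of Rpl3 found in heart and skeletal muscle, had at most 0.0472 FPKM as a group mean in cultures, against 73.1 ± 15.6 (SD, n = 3) for Rpl3 in the wild type. Rpl10l and Rpl39l, which are known from the testis, had wild-type means of 0.556 and 0.136 FPKM, against 84.1 and 11.6 for Rpl10 and Rpl39. The restricted form was the lower of each of these pairs. Rps27l, a p53 target, had group means of 29.4 to 47.3 FPKM in the streak and mesoderm sections, where the highest mean of Rps27 was 0.649. With copies counted the ranges over those sections were 493 to 1235 FPKM for Rps27l and 0 to 48.3 for Rps27. The search for copies covered annotated pseudogenes and genes with provisional or pseudogene names. A copy with a name of its own, such as Rps27rt, could therefore be missing from the total of Rps27. Rps27rt is on the list of relatives outside the name rule, which summed to 739 to 1679 FPKM in those sections. The order of this pair is thus uncertain. Rpl22l1, the paralog of Rpl22, was listed at 0.416 to 1.06 FPKM in the 6 cultures and at 20.8 to 70.2 in the streak and mesoderm sections. Rpl22 itself had means of 493 FPKM in wild-type and 753 in knock-in cultures and 21.1 to 68.6 in those section groups. In heterozygous mesoderm, as in cultures, the mean of the Rpl22 row was the higher (68.6 against 49.1 FPKM), and in the other section groups with replicates that of Rpl22l1 was. With copies counted Rpl22 had 110 to 1761 FPKM in the streak and mesoderm sections, above Rpl22l1 in all of them. Rpl36al, which encodes nearly the same protein as Rpl36a, had means of 247 ± 33.8 and 469 ± 54.5 FPKM (SD, n = 3 each) in wild-type and knock-in cultures, while the row of Rpl36a had 5.42 and 9.59. With copies counted Rpl36a had 194, 196 and 258 FPKM in the wild type and 496, 433 and 475 in the knock-in, so the gap is one of the rows. Rps4l, a relative of the X-linked Rps4x, is described with the sections.

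In the knock-in cultures 35 of the 77 members tested rose and none fell, and the direction was shared by nearly the whole set. Over all genes 32.4% passed the threshold, an adjusted p under 0.05 by limma with Benjamini-Hochberg adjustment over 13133 genes, and 16.2% were called higher. The median change of members was 0.51 on the log2(FPKM + 1) scale, against 0.02 for all genes, and 71 of 77 members had a positive difference. The large subunit had 24 of 45 members called higher with a median of 0.54, and the small subunit 11 of 32 with a median of 0.47. At an unadjusted p under 0.05 the count was 49, where 44.5% of all genes had one. In 46 members every knock-in library lay above every wild-type library, and in 1, Rpl37a, below. Of all genes 24.4% stood apart in the higher direction and 48.4% in either. Rpl3l and Rpl39l did not reach the mean of 1 FPKM needed for a test. Fewer cells of a type and less RNA per cell cannot be told apart in these bulk libraries.

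The largest change of the small subunit was that of Rps3a, which lies at the messenger RNA exit of the ribosome. It had 9.32, 11.3 and 11.8 FPKM in the wild type and 26.4, 25.4 and 26.5 in the knock-in, so that the groups stood far apart. The difference was 1.20 ± 0.13 (SE) with an adjusted p of 8.08e-04 by limma, and 0.52 for its family total. The row was 1.49% of that total on average. Rps4x followed with 60.6, 58.1 and 58.4 FPKM in the wild type and 122, 111 and 108 in the knock-in. It rose by 0.93 ± 0.10 (SE, limma adjusted p = 8.32e-04) and its family total by 1.05. Rps6, the protein phosphorylated by S6 kinase downstream of mTOR, had 193, 191 and 220 FPKM in the wild type and 325, 347 and 267 in the knock-in. Its groups did not overlap, and it rose by 0.63 (limma adjusted p = 0.00893).

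Rps26, which sits at the exit of the messenger channel, had 556, 618 and 627 FPKM in the wild type and 893, 842 and 897 in the knock-in, a rise of 0.55 (limma adjusted p = 0.00444). Rps20, a protein of the head of the subunit, had 18.2, 21.2 and 15.7 FPKM against 40.1, 22.0 and 47.6, and rose by 0.90 ± 0.27 (SE, limma adjusted p = 0.0374). The second knock-in library of Rps20 lay just above the highest wild-type library, and the call was lost without wild-type library 1, 2 or 3 or knock-in library 1 or 3 (adjusted p between 0.0588 and 0.103). Rps3, at the entry of the messenger channel and without copies of at least 150 bases, had 174, 211 and 234 FPKM against 316, 261 and 255. Its groups did not overlap and its difference of 0.43 had a limma adjusted p of 0.0541. Rps9 had a difference of 0.34, with groups that overlapped, and did not pass.

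In the large subunit Rpl8, a core protein near the peptidyl transferase center, had the largest difference, before the chromosome medians described below are subtracted. It had 744, 910 and 1031 FPKM in the wild type and 2101, 1802 and 1743 in the knock-in. Every knock-in library was well above every wild-type library, and Rpl8 rose by 1.08 ± 0.14 (SE, limma adjusted p = 0.00143), or 0.58 above the median of its chromosome. Rpl8 has no copies of at least 150 bases in the culture tables, and neither has Rpl4, which lines the exit tunnel. The section tables do list a copy of Rpl4, Gm5835, with 1270 bases and 96.9% identity. There the Rpl4 row was 16.7% of its family on average. Whether the Rpl4 row in cultures shares reads with that sequence was not tested. Rpl4 had 515, 465 and 620 FPKM in the wild type and 750, 901 and 756 in the knock-in. The groups of Rpl4 did not overlap, and it rose by 0.59 (limma adjusted p = 0.0133). Rpl13a, known also as the carrier of box C/D small nucleolar RNAs in its introns, rose by 0.91 ± 0.12 (SE, limma adjusted p = 0.00138), from 135, 155 and 162 FPKM to 273, 312 and 267.

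Rpl38, a protein tied to patterning of the mouse skeleton by the Tail short mutant, had a low row of 1.56, 1.47 and 1.20 FPKM in the wild type and 4.14, 3.71 and 2.53 in the knock-in. It rose by 0.87 ± 0.20 (SE, limma adjusted p = 0.0147), though not without knock-in library 2 (adjusted p = 0.0584). Its family total was 987 to 1068 FPKM in the wild type and 1314 to 1742 in the knock-in, and these ranges did not overlap. Rpl37 rose by 0.86 (limma adjusted p = 0.0198) and Rpl24, which joins the late pre-ribosome, by 0.81 (adjusted p = 0.0102). The row of Rpl37 was 0.287% of its family on average, and the family total differed by 0.45. Against the median of chromosome 15, where Rpl37 lies, the row differed by 0.36 and the family by −0.043. The family's FPKM was mostly that of the copy Gm13826 on chromosome 5, where the median of all genes was 0.05. The call of Rpl37 was lost without wild-type library 1 or 3 or knock-in library 1 or 2 (adjusted p between 0.0534 and 0.0724).

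The stalk proteins did not pass as single rows. Rplp1 had 1463, 1934 and 1927 FPKM in the wild type and 2473, 2004 and 2093 in the knock-in, with no overlap between the groups. Its difference of 0.31 had a limma adjusted p of 0.127. Rplp0, the base of the stalk, differed by 0.25 and Rplp2 by 0.19, with limma adjusted p of 0.225 and 0.429. Their family totals were called higher, at 0.38 for Rplp1, 0.33 for Rplp0 and 0.69 for Rplp2.

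Only 6 members had a negative difference, and none of these passed, with Rpl30, Rpl37a, Rpl15, Rps15a and Rpsa among them. Rpl30 had 7.98, 15.2 and 12.7 FPKM in the wild type and 5.88, 6.66 and 9.11 in the knock-in, a difference of −0.63 with a limma adjusted p of 0.0865. Without wild-type library 1 it was called lower (adjusted p = 0.0310). Its family total went the other way, from 180, 161 and 117 FPKM to 207, 259 and 323, and was called higher at 0.78 (limma adjusted p = 0.0236). For Rpl30 the row and the sequence as a whole thus gave opposite directions. Rpl37a had 16.8, 31.4 and 18.9 FPKM in the wild type and 14.7, 13.2 and 14.9 in the knock-in. Here the family total moved with the row, from 3267, 3540 and 3768 FPKM to 2722, 2833 and 2617, and it was the only family called lower (−0.37, limma adjusted p = 0.0171). Against the median of chromosome 1, where Rpl37a lies, the family differed by −0.033 and the row by −0.23. The FPKM of this family was mostly that of Gm4149, shown above, with 2815, 3048 and 3248 FPKM in the wild type and 2294, 2354 and 2232 in the knock-in. Gm4149 lies on chromosome 13, where the median of all genes was 0.09. The median of chromosome 1 thus does not stand for the place of most of this family's FPKM. Rps15a differed by −0.05 as a row and was called higher as a family (0.72, limma adjusted p = 0.00198). Rpl15, which has 265, 252 and 357 FPKM in the wild type and 250.4 to 274 in the knock-in, and Rpsa, the laminin receptor precursor, lay within the spread of the replicates.

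**Figure D3:**
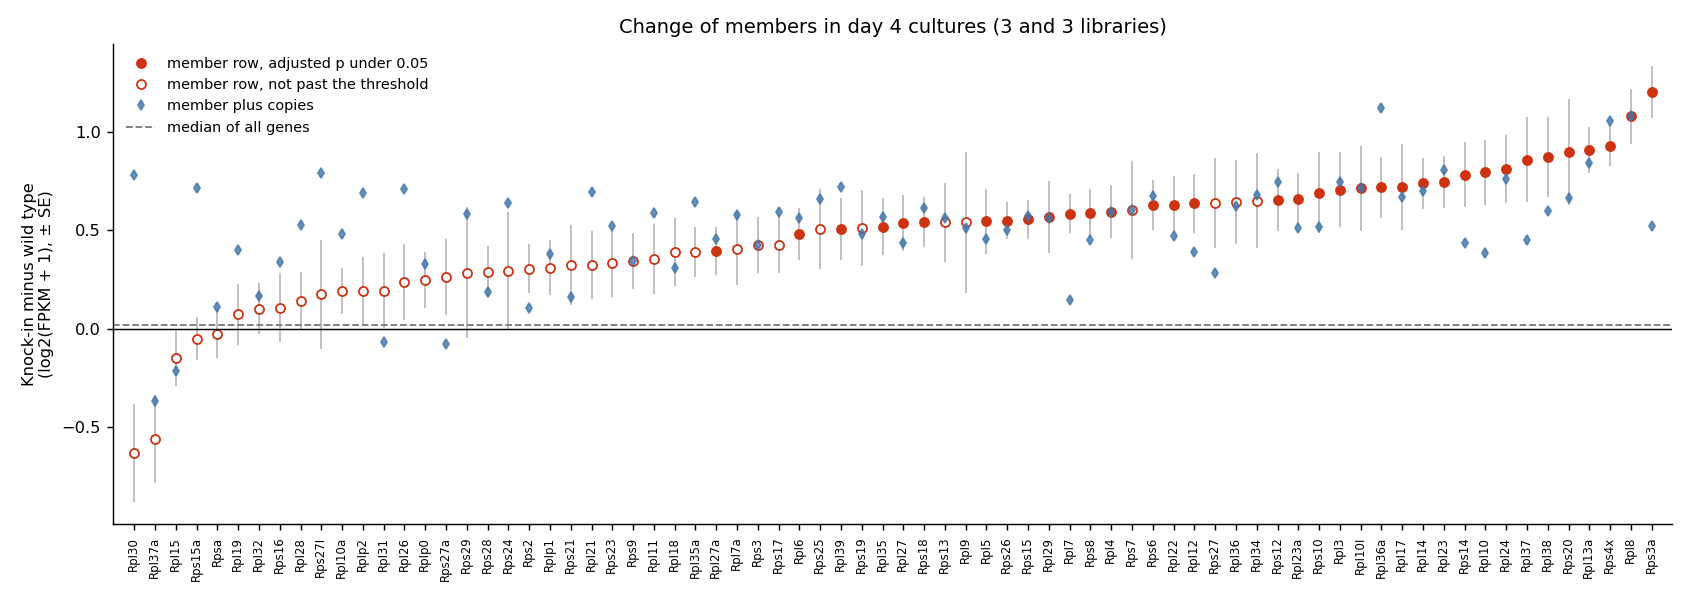
Difference between knock-in and wild-type cultures for 74 of the 77 members tested (y axis, log2(FPKM + 1), bars ± SE), ordered by size. Filled circles passed an adjusted p of 0.05, open circles did not, diamonds give the member plus its copies and the dashed line the median of all genes (0.02). Nearly all members lie above that line, and Rpl30 and Rps15a are among those that change sign between circle and diamond.

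Counted as families, 59 rose and 1 fell, with a median of 0.53. Among all genes 15.7% were called higher in that fit. There were 32 members called higher both as a row and as a family. Rpl7, Rpl23 and Rps20 were called as rows and not as families, with family differences of 0.15, 0.81 and 0.66 beside row differences of 0.59, 0.75 and 0.90. In 63 families the knock-in libraries all lay above the wild-type libraries and in 3 below (Rpl15, Rpl37a and Rps27a), where 23.8% of all genes stood apart in the higher and 24.7% in the lower direction.

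Whole chromosomes differed between the lines. The median difference of all genes was −0.34 on chromosome 1, −0.34 on chromosome 8, −0.39 on chromosome 14 and 0.49 on chromosome 15. The 6 members tested on chromosomes 1, 8 and 14 had a median of 0.07 and 1 call, and the 4 on chromosome 15, Rpl8 among them, had a median of 0.78 and 3 calls. The 67 members on other chromosomes had a median of 0.52 with 31 calls. After subtraction of the median of their own chromosome the medians were 0.41, 0.29 and 0.44. Rpl8 then had 0.58, below Rpl7 (0.92), Rpl24 (0.83), Rpl38 (0.82) and Rpl13a (0.81). Rpl37a and Rpl15, which had negative differences, lie on chromosomes 1 and 14. The 4 members on the X chromosome, Rpl10, Rpl36a, Rpl39 and Rps4x, all rose, with a median of 0.76. What part the chromosome-wide differences had in the single values was not tested.

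The libraries were also sequenced in different lanes. In lane 3, named in the headers of 1 wild-type and 2 knock-in tables, 64 of the 77 members were higher in the knock-in, with a median difference of 0.38 against −0.03 for all genes. This comparison has 1 library on one side and no test. The count of members past the threshold fell to 20 without wild-type library 1 (19 higher and 1, Rpl30, lower) and to 22 without knock-in library 1 or knock-in library 2.

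Genes that act with the ribosome gave the following counts, read beside the 16.2% of all genes called higher and the same share called lower. Of the 35 ribosome biogenesis genes tested, 20 rose and 1 fell, with a median of 0.54. They included Nle1 (1.31) and Bop1 (1.13), which build the large subunit, Fbl (1.16), the methyltransferase of box C/D particles, and Mybbp1a (0.86). Polr1a, the largest subunit of RNA polymerase I, fell by 0.89. Of 20 translation genes with TOP messages 10 rose and none fell, with a median of 0.51, among them Hnrnpa1 (1.59), Naca (1.12), Eif4b (1.03) and Gas5 (0.93). Of 17 initiation factors 3 rose, Eif2s2 by 1.26, Eif2b5 by 0.82 and Eif4e by 0.82, and the median was 0.14. Of 11 regulators around MYC and mTOR 2 rose, Mycn by 1.08 and Myc by 0.90, and none fell. Of 5 relatives of the family outside the name rule 2 rose, Rpl36al by 0.92 and Fau, a fusion of a ubiquitin-like protein with Rps30, by 0.77. Of 10 p53 targets 2 rose, Bbc3 by 0.99 and Sesn2 by 0.41, and Cdkn1a fell by 1.00.

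Cell state differed between the 2 lines at the same time. The primitive streak list summed to 303 to 461 FPKM in the wild type and 90.2 to 111 in the knock-in, with 4 of 6 genes called lower. Nascent mesoderm genes summed to 29.3 to 49.7 and 2.65 to 3.31 FPKM, with 3 of 4 lower and Msgn1 at 0 in the knock-in. The 6 anterior epiblast genes all rose, with sums of 544 to 707 and 1436 to 1656 FPKM. Trophoblast genes summed to 610 to 1140 and 185 to 228 FPKM, with 3 of 4 lower and Elf5 at 0 in the knock-in. Visceral endoderm genes summed to 210 to 249 FPKM in the wild type and 270 to 346 in the knock-in. Of these markers Afp, Ttr and Apoa4 were at 0 in both lines, and the 1 gene tested did not pass. No blood gene reached the level for a test, 1 of 2 feeder fibroblast genes rose and 1 fell, and 1 of 3 keratinocyte genes fell. Feeder fibroblast genes summed to 7.14 to 16.2 FPKM in the wild type and 18.4 to 21.3 in the knock-in. Keratinocyte genes summed to 10.8 to 14.5 and 5.98 to 8.63 FPKM in the same order. The part of these states in the members' rise was not tested.

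The start of the message is the sequence shared by many of these genes. RefSeq promoter windows (GRCm38.p6) were at hand for 59 member symbols, 71 windows in all, each of 300 bases with 50 after the start. A C followed by at least 4 pyrimidines stood exactly at the start in 13 of them (18.31%), against 2.51% of 32851 windows of all genes, and within 2 bases of it in 30.99% against 8.96%. Searched on both strands, CCGGAAGT, the core bound by ETS factors, was in 16.9% of member windows and 3.89% of all, CACGTG, the E-box, in 11.27% and 7.15%, and TATAAA in 8.45% and 13.62%. A match is a description of letters and shows no binding. A window without the pyrimidine run does not show that the message lacks a TOP start. The annotated start may be off by more bases than the search allowed. The windows below run from 15 bases before to 15 after the start for 3 members that rose in the knock-in (Rpl14, Rpl38 and Rps6) and 2 with negative differences (Rpl15 and Rps15a), with the pyrimidine run in capitals. Rpl14 is at chr9:120571502-120571531 (plus strand), Rpl38 at chr11:114668565-114668594 (plus), Rps6 at chr4:86857353-86857382 (minus), Rpl15 at chr14:18270972-18271001 (minus) and Rps15a at chr7:118116133-118116162 (minus).
Rpl14: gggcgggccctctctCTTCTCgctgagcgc
Rpl38: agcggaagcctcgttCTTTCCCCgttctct
Rps6: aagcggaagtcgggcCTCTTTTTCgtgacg
Rpl15: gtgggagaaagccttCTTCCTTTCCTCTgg
Rps15a: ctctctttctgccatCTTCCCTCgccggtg
The longest run of the 5, 13 bases, is that of Rpl15. Of the members tested with a pyrimidine start within 2 bases, 9 of 21 rose with a median of 0.41, and of those with windows and no such start 16 of 35 with a median of 0.51. As families these counts were 18 and 26, with medians of 0.60 and 0.50. The order of the 2 sets thus depended on whether copies were counted, and the difference between them was not tested.

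In the streak no member passed the test between homozygous and heterozygous sections. Of 72 members tested 0 passed limma's threshold, where 0.0201% of all genes did. An unadjusted p under 0.05 was found for 3 members, Rpl27, Rpl36 and Rpl41, and for 10.2% of all genes. The 8 members below the mean of 1 FPKM, Rpl36a, Rpl37 and Rps12 among them, were not tested. The median difference of members was −0.12 and that of all genes 0.25, and in no member did the groups stand apart, where 0.846% of all genes did in either direction. After scaling each library by its median ratio the medians were −0.40 and 0.05. In mesoderm 0 of 72 passed, where 0.196% of all genes did, and the medians were −0.08 for members and 0.31 for all genes. The members' median turned positive without heterozygous layer 9 (0.19) and without homozygous layer 7 (0.0063) or 9 (0.0036). There 2 members, Rpl27 and Rps4l, were higher and 3 lower in every homozygous section than in any heterozygous one, where 9.66% of all genes stood apart in either direction.

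Among the 3 lower ones, Rpl22 had 41.2, 50.8 and 114 FPKM in heterozygous mesoderm and 16.5 to 34.4 in homozygous. Its groups did not overlap, and its difference of −1.46 had a limma adjusted p of 0.173. Rps28, a small protein at the messenger exit, had 27.02, 30.6 and 30.9 FPKM and 2.13 to 23.7, with a difference of −1.60 (limma adjusted p = 0.263). Its row stands for at most 2.55% of its family in these sections, and the family total overlapped between the genotypes, with 1061 to 2494 and 700.5 to 1804 FPKM.

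With both regions in 1 fit, Rpl27 alone of 72 members passed, a share near the 1.25% of all genes that did. Rpl27, a protein of the large subunit, lies at chr11:101442298-101445529. In heterozygous streak it had a lowest value of 64.0, a median of 131 and a highest of 260 FPKM over 6 sections. In homozygous streak it had 243, 258, 253, 423 and 265 FPKM, so that the 2 highest heterozygous sections lay among the homozygous ones. In mesoderm it had 72.5, 135 and 50.7 FPKM in the heterozygote and 159, 204, 187, 185 and 215 in the homozygote, with no overlap. The epiblast sections had 139 and 195 FPKM in the same order. Rpl27 rose by 1.09 ± 0.25 (SE) with a limma adjusted p of 0.0317.

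The rise of Rpl27 was called for its row and not for its family, whose total differed by 0.30 with a limma adjusted p of 0.361. The row was 9.55% to 18.0% of its family in heterozygous and 20.5% to 23.1% in homozygous streak, and 7.90% to 9.43% and 14.2% to 19.8% in mesoderm. In neither region did these parts overlap between genotypes, and the epiblast had 14.9% and 22.2%. In the 3 sections with conflicting labels, 1 homozygous and 2 heterozygous, the part was 4.10% to 5.81%. The call was lost with layer as a block (adjusted p = 0.0735). It was also lost without any one of heterozygous streak layer 7, heterozygous mesoderm layers 7 and 11, homozygous streak layers 7, 9 and 11 or homozygous mesoderm layers 5, 7, 9 and 11 (adjusted p between 0.0528 and 0.0764). Anterior epiblast genes and mitochondrial genes also differed by genotype in these sections, the first with sums of 38.3 to 112 FPKM in heterozygous and 116 to 227 in homozygous streak. Primitive streak genes summed to 13.0 to 41.6 FPKM in heterozygous and 66.3 to 87.2 in homozygous mesoderm, with no overlap, and to 266 to 455 and 240.4 to 448 in streak. The part of these lists in the values of Rpl27 and Rps4l was not tested.

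Rpl41, at chr10:128548114-128549305, had no copy of at least 150 bases, so its row and its family total are the same. Whether shorter copies share its reads was not tested. Rpl41 had a lowest value of 539, a median of 928 and a highest of 1067 FPKM in heterozygous streak and 565, 515, 405, 1077 and 510.0 in homozygous streak. In mesoderm it had 806, 926 and 1994 FPKM in the heterozygote and 900.1, 573, 427, 525 and 713 in the homozygote. The genotypes overlapped in both regions. Its difference over both regions was −0.67 with a limma adjusted p of 0.0863, and −0.97 with an adjusted p of 0.0225 after scaling by the median ratio. With that scaling, where 1.69% of all genes passed, Rps24 was called lower as well (−0.63) and Rpl27 stayed higher (0.79).

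**Figure D4:**
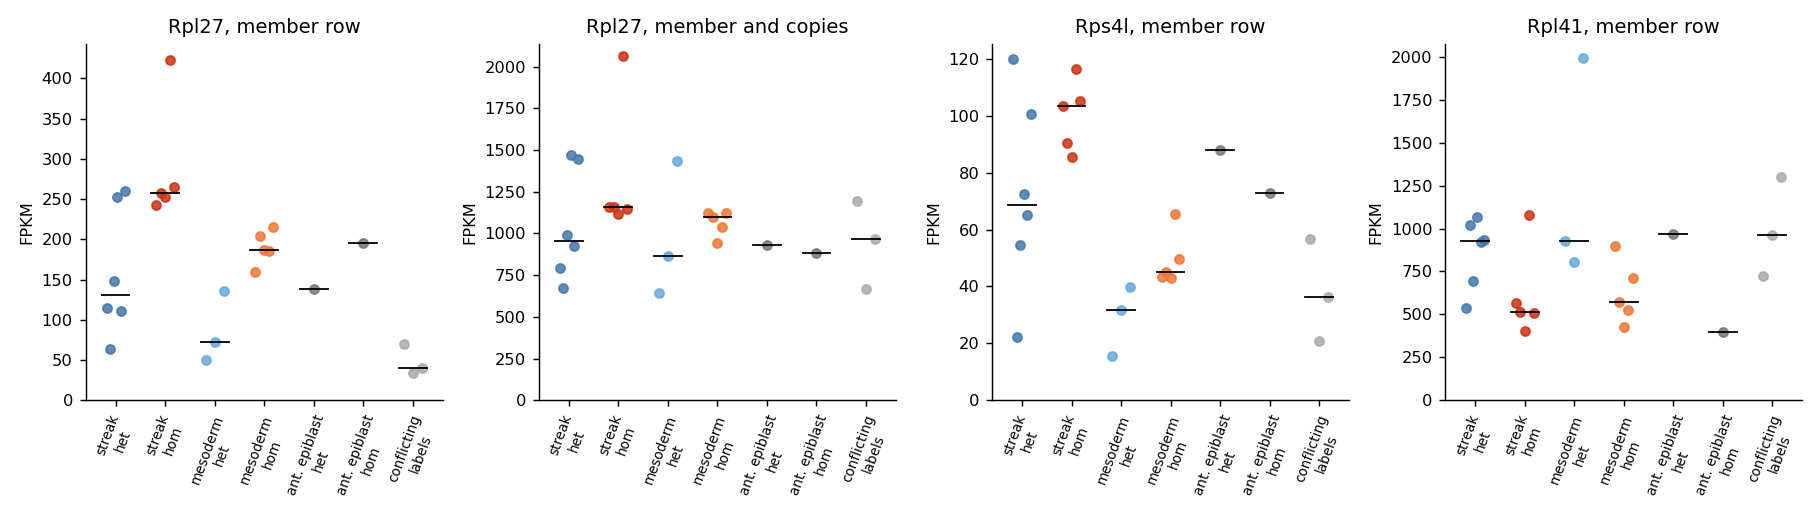
FPKM of Rpl27 as a row, of Rpl27 with its copies, of Rps4l and of Rpl41 in every embryo section, by region and genotype, with each point 1 section and each bar a median. The Rpl27 row is higher in homozygous mesoderm (159 to 215) than in heterozygous mesoderm (50.7 to 135), while its family total overlaps, and Rps4l has a lower median in mesoderm than in streak in each genotype.

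Between the regions 2 of 72 members fell from streak to mesoderm, a smaller share than that of all genes. The comparison was made within 7 pairs of sections of the same genotype and layer, and 8.62% of all genes passed, 8.04% in the lower direction. The search for copies compared no member with another, so reads that Rps4l may share with Rps4x were not looked at. Rps4l, at chr6:148354656-148355598 and without copies of at least 150 bases, had 65.1, 101 and 22.3 FPKM in the heterozygous streak sections of layers 7, 9 and 11, and 31.7, 39.8 and 15.7 in mesoderm of the same layers. In the homozygote it had 90.4, 85.4, 116 and 105 FPKM in streak layers 5, 7, 9 and 11, and 45.0, 42.9, 65.4 and 49.8 in mesoderm. It was lower in mesoderm in every pair, by 0.95 ± 0.17 (SE) with a limma adjusted p of 0.0120. The single epiblast sections had 87.9 FPKM in the heterozygote and 72.7 in the homozygote. Its difference between genotypes over both regions was 0.68 with a limma adjusted p of 0.138.

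Rpl27 was lower in mesoderm in every pair as well, by 0.59 with a limma adjusted p of 0.0434. That call was lost without any one of the 7 pairs (adjusted p between 0.0512 and 0.109), and its family total did not pass. The direction of the comparison depends on the scale, since the median of all genes was −0.34. Members had a median of −0.21, with 57 of 72 negative. After scaling by the median ratio 57 of 72 were positive, the median was 0.20, and no member passed, where 0.689% of all genes did. Rps4l then had −0.51 with an adjusted p of 0.190. As families 5 fell, where 8.66% of all genes were called lower: Rpl4 (−0.85), Rps4l, Rplp0 (−0.55), Rpl6 (−0.51) and Rps6 (−0.45), and with scaling none did.

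The difference between regions was tested for a dependence on genotype, and 0 of 72 members passed, where 0.0109% of all genes did. The smallest adjusted p of a member was 0.795 and the term of Rps4l was −0.03. Within the heterozygote and within the homozygote alone no member passed, with 3.07% and 0.219% of all genes called. Of the lists beside the family, on values without scaling, 4 of 17 initiation factors fell: Eif4e (−0.91), the cap-binding protein, Eif6 (−0.90), which keeps the large subunit from joining too soon, Eif2s1 (−0.84) and Eif5 (−0.71). Of 34 biogenesis genes 2 fell, Rrn3 (−0.84) and Nhp2 (−0.74), of 21 TOP genes 1, Hnrnpa1 (−0.57), and of 8 relatives 1, Gnb2l1 (−0.65), the RACK1 scaffold on the small subunit. These counts are to be read beside the 8.04% of all genes called lower. Of 6 primitive streak genes 5 fell, T by 3.54. Of 4 nascent mesoderm genes tested 1, Hand1, rose (1.88), and the list's summed FPKM overlapped between the regions, with medians of 23.4 in streak and 27.5 in mesoderm of the heterozygote and 60.9 and 40.3 in the homozygote.

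**Figure D5:**
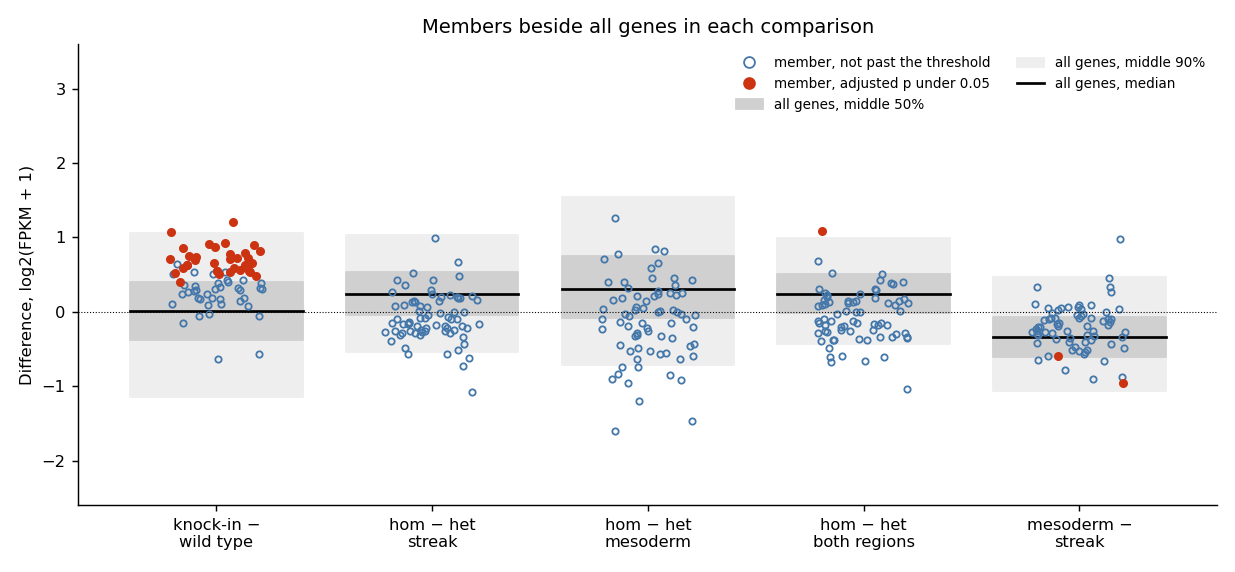
Difference on the log2(FPKM + 1) scale for each member (points) in 5 comparisons, beside the middle 50% (dark) and 90% (light) and the median (line) of all genes tested. Filled points passed an adjusted p of 0.05: 35 in the cultures, none within a region between genotypes, 1 over both regions and 2 between regions.

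Along the layers of the embryo no member passed the test. In streak 0 of 72 passed, where 0.0805% of all genes did, and 56 had a positive slope, with a median of 0.03 per layer against −0.04 for all genes. The steepest was Rpl38, at 0.30 per layer with a limma adjusted p of 0.125. In mesoderm 0 of 72 passed, where 0.0115% of all genes did.

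In 3 of the 4 section groups members varied more between libraries than in cultures, and homozygous streak was close to them. Measured from the median member of the library, the median SD of a member was 0.19 in knock-in and 0.18 in wild-type cultures, 0.37 and 0.22 in heterozygous and homozygous streak, and 0.38 and 0.29 in mesoderm. Heterozygous streak layer 11 had 13 of 72 members over 1 log2 unit from the other sections of its group and layer 1 had 11. Most of the widest departures were rows that hold little of their family. Rps28 was listed at 0 in homozygous streak layer 11 and at 29.3 FPKM in layer 9. Rpl38 was at 20.2 FPKM in heterozygous streak layer 7 and at 0 in layers 1, 3 and 5, while its copy Rpl38-ps2, equal in 213 of 213 coding bases, had 683 FPKM in layer 7 and 315, 590 and 727 in layers 1, 3 and 5.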

How the data were processed

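RNA sequencing tables of 30 of the 34 samples were used, and 4 samples without a table were not analysed here. The authors deposited gene values in FPKM with an interval for each value. Per the submitters' processing notes, the tools were CASAVA and TopHat2 2.0.11, with genome mm10. The program that made the FPKM values, its treatment of reads that fit several places and its use of strand are not given in the sources used here. Gene positions in the section tables match GRCm38, and those in the culture tables an older build. Depth is unknown.

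Repeated identifiers, and identifiers sharing a member's symbol, were summed. FPKM below 1e-06 counted as 0. Tests used limma 3.58.1 in R 4.3.3 on log2(FPKM + 1), a filter of 1 FPKM on the mean of a gene in the comparison, a prior that follows the mean, two-sided p-values, Benjamini-Hochberg adjustment over all genes tested and a threshold of 0.05. Groups came from the labels. Cultures were compared without covariates, genotypes with layer as a number (and region where both entered), and regions within pairs of the same genotype and layer. The scripts were checked on simulated data. Alternatives were a pseudocount of 0.1, no filter on low values, scaling by median ratio, a replicate block, leaving out each library, adding the conflicting sections and, chosen after seeing the data, family totals. Copies were found with BLAST 2.17.0 against annotated transcripts and by name. Python 3.11.15, pandas 2.3.3 and numpy 2.4.6 were used.

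The members, the related lists and the marker lists were chosen with earlier results of these data known. Any member could be named. By rule the text names members past the threshold (the 8 largest changes each way), those farthest from the members' median, the highest and lowest by level, the paralog pairs and up to 4 called genes of each related list. Other members, and single copies, were named after their values were seen. Some members are not reported here by name.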

Additional observations from a re-analysis of the deposited data

Results flagged for a closer look

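Homozygous streak layer 9 stood high of its group in 7 of the members named by level or pattern. Rpl41 was at 1077 FPKM there (next highest section 565), Rpl29 at 534 (349), Rplp1 at 440.0 (209), Rps9 at 446 (233) and Rpl27 at 423 (265). Rps4x was at 56.1 FPKM (28.7) and Rps29 at 112 (74.4). In each the gap to the nearest section, as a part of the range of the 5 sections, passed Dixon's critical value. In the same way Rps4x was low in homozygous mesoderm layer 7, at 18.2 FPKM with the next lowest section at 27.5. Groups looked at numbered 48 and 8 gave such a value. Chance alone marks about 1 in 20 groups, and members of 1 section are not independent. Homozygous streak layer 9 was also high as a library. All its FPKM summed to 376860, against 242444 to 313260 in the other homozygous streak sections. Its members summed to 6882 FPKM, against 3578 to 4025 in those sections.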

How the results depend on the processing

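Each result was recomputed under the alternatives, and where a value moved the cause was not tested. The 35 members past the threshold in the knock-in comparison became 20 to 35 with 1 library left out, 21 with no filter, 22 with a replicate block, 60 as family totals and 62 as scaled family totals. Replicate numbers do not pair the cultures: deviations of same-numbered libraries correlated at −0.12, −0.05 and −0.05. Between genotypes in streak no alternative gave a member. In mesoderm the count was 0 to 1 with a section left out and 1 with conflicting sections placed by title. Over both regions the single member became 0 to 2 with a section left out, 0 with no filter, with layer as a replicate block and as family totals, 3 with scaling, 2 and 3 with conflicting sections placed by title and by cell type label, and 6 as scaled family totals. Between regions the 2 members became 1 to 2 with a pair left out, 1 with no filter, 5 as family totals, and 0 with scaling, with no replicate block and as scaled family totals. Layer trends gave 0 throughout. Among values called in either fit, direction reversed for Rpl30 in the knock-in as family totals (0.78, and 0.78 scaled), Rps15a (0.72, and 0.71 scaled), and Rpl27 as scaled family totals over both regions (−0.019) and between regions (0.25). Values called in neither also changed sign: Rpl27 in mesoderm as scaled family totals (−0.24), Rpsa as family totals (0.11) and, with a culture left out, Rpsa (up to 0.065), Rpl15 (0.0063), Rps15a (0.024) and Rps29 (−0.041). The members' median changed sign in streak with conflicting sections placed by title (0.088), in mesoderm with a section left out (up to 0.19), over both regions without heterozygous mesoderm layer 9 (0.037) and between regions with scaling (0.20, and 0.26 as family totals). The ratio of the members' share between knock-in and wild type, 1.26, was 1.20 to 1.30 with a library left out and 1.40 over named genes alone. Homozygous over heterozygous it was 0.832 to 0.982 in streak and 0.614 to 0.750 in mesoderm with a section left out. Scaling moved the median of all genes from 0.25 to 0.05 in streak, from 0.31 to 0.05 in mesoderm, from 0.24 to 0.05 over both regions and from −0.34 to −0.0043 between regions. Depth is unknown, so limits from counting are too.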

Other observations

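The 3 sections with conflicting labels had members at 1.88% to 2.35% of FPKM. Their Rpl27 rows were at 69.6, 34.3 and 39.6 FPKM. Copies shorter than 150 bases were left out of family totals. One of them, singled out after its values were seen, was Gm28911, a copy of Rpl8 of 117 bases. It had 15865 FPKM in homozygous mesoderm layer 9, 11004 in layer 3 and 0 in the other sections with a region.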
